A study of Mus musculus with 8 samples.

Results

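The 37 genes described here encode the machinery that copies DNA in S phase and the switch from G1 to S phase that turns it on. They were taken by name from a list of licensing, fork, nucleotide supply and G1/S genes, and all 37 were found among the 56748 genes of the count table. Their transcripts were measured by bulk RNA sequencing in mouse cells sorted for the red fluorescent protein tdTomato from lower-jaw molars at postnatal day 10, after tamoxifen at postnatal day 3. The labels give the cells as CXCL12+ apical papilla cells and the tissue as dental pulp, while the extraction text speaks of dental follicle cells. The apical papilla is the pad of mesenchyme below the pulp from which the elongating root draws its cells. All mice carried a conditional Ctnnb1 deletion, the gene of beta-catenin: 4 libraries are labelled cHet, genotype Ctnnb1(+/-), and 4 are labelled cKO, genotype Ctnnb1(-/-). No group has 2 intact copies per its genotype, so the comparison is between loss of 1 copy and loss of both. Neither the Cre line that drives the deletion nor the deleted exons are named in the labels. Nothing in the labels ties each library to its own animal, and the p-values therefore reflect library-to-library spread that may be partly technical. In bulk samples, fewer cells of a type and less RNA per cell cannot be told apart.

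Before S phase the origin recognition complex, Cdc6 and Cdt1 load the Mcm2 to Mcm7 ring onto origins, and Cdc45, the GINS complex and Mcm10 turn that ring into a running helicase. DNA polymerases, the clamp Pcna and its loader, flap and ligase enzymes then copy the strands, while ribonucleotide reductase and thymidylate synthase supply nucleotides and histone chaperones rebuild chromatin. E2F transcription factors, released from retinoblastoma proteins by cyclin D and cyclin E kinases, switch most of these genes on together at G1/S. Beta-catenin acts with TCF/LEF factors in canonical Wnt signalling, and Ccnd1 is a textbook target of that pair.

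The libraries held 44444033 to 50051392 counts each, and the groups overlapped (exact permutation test over 70 assignments, two-sided p = 0.171, smallest possible 0.0286). The members took between 0.0853% and 0.114% of all counts, with a median of 937.5 counts per gene and library. Ctnnb1 itself had means of 257 ± 40.2 (cHet) and 277 ± 39.2 (cKO) CPM (SD, n = 4 each), a log2 difference of 0.11 (SE 0.15, adjusted p = 0.785). Its count covers the whole gene and so cannot check the labels. CPM here means normalised read counts (edgeR's cpm) after trimmed-mean (TMM) scaling. The papilla markers were present: the 12 listed genes summed to 521 to 1333 CPM in cHet and 2822 to 5195 CPM in cKO, with Cxcl12 at 149 ± 91.5 and 826 ± 238 CPM. General mesenchyme genes summed to 3869 to 12420 CPM in cHet and 14020 to 27650 CPM in cKO. Markers of cells that the label does not name were also present. The 12 olfactory neuron genes summed to 7664 to 13630 and 6555 to 8187 CPM, the 11 ameloblast and dental epithelium genes to 2827 to 12100 and 5260 to 9132 CPM, and the 9 neutrophil genes to 55.7 to 18510 and 28.4 to 1292 CPM, with cHet12 at the top. No gene of these lists was at 0 in all 8 libraries.

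Across the replication machinery no gene was called between the groups. All 37 members passed the filter on low counts, and edgeR's quasi-likelihood test called 0 of them higher and 0 lower in cKO at a Benjamini-Hochberg adjusted p under 0.05, where 1.08% and 0.0558% of the 21508 tested genes were called. The median log2 difference, cKO minus cHet, was −0.04 over the members and −0.03 over all tested genes. Of the members, 14 lay above 0 and 23 below, beside 52.5% of all tested genes below 0. Single members ran from −1.29 for Cdc6 to 0.49 for Fen1. Fen1 was near the floor, with as few as 5 counts in a library, and the next highest was Mcm4 at 0.41.

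At an unadjusted p under 0.05, 0 members were higher and 2 were lower, Mcm10 and Uhrf1, beside 10.8% and 6.33% of all tested genes. The libraries of the groups failed to overlap for 0 members upward and 1 downward, Mcm10, beside 6.46% and 3.68%. DESeq2 called 0 higher and 1 lower, again Mcm10, beside 5.78% and 2.28% of its tested genes. Voom with quality weights called 0 and 0, beside 5.96% and 1.26%. For 26 of the 37 members the 95% interval of the difference lay inside a 2-fold change in either direction, beside 42.2% of all tested genes, and for 32 the log2 difference itself was nearer to 0 than 0.5, beside 64.4%. The members were not set against genes of like abundance, which governs the width of such intervals. For the other 11 members the interval reached past 2-fold.

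**Figure D1:**
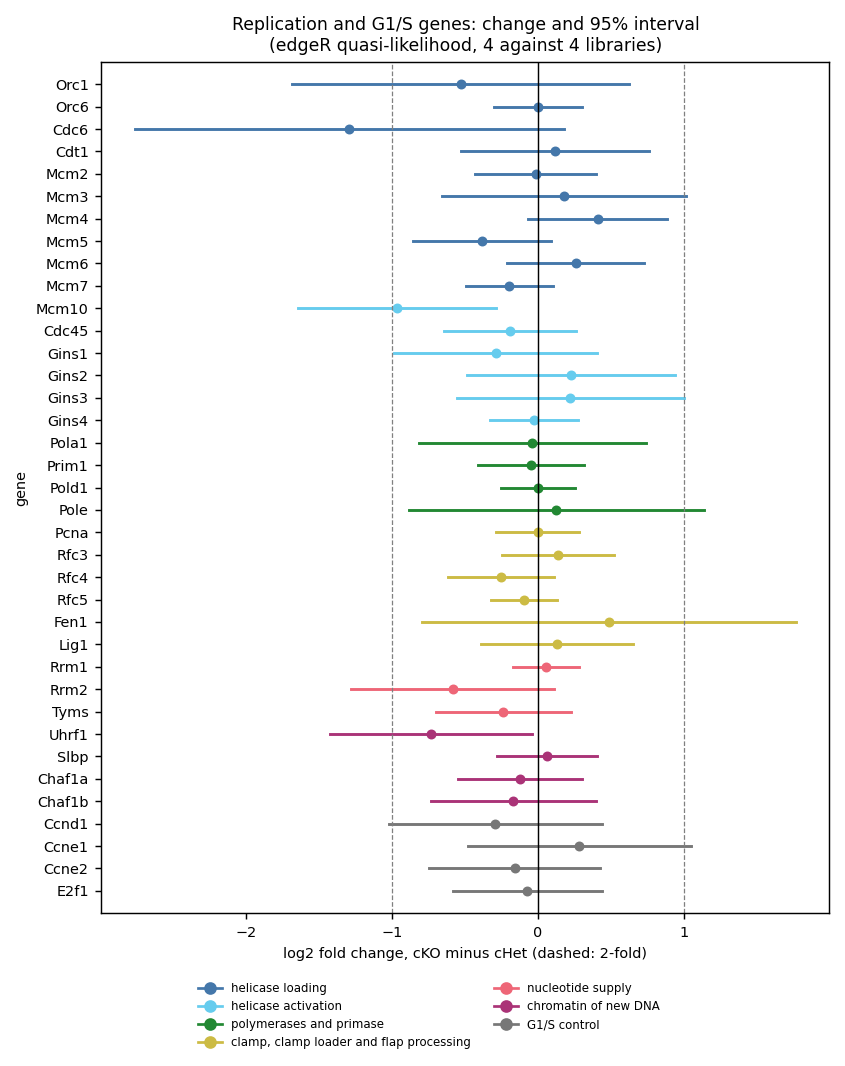
Log2 difference of each member, cKO minus cHet (x axis), with its 95% interval from edgeR's quasi-likelihood fit, genes in rows coloured by role. Most points lie within 0.5 of 0 and the intervals of 26 of 37 members stay between the dashed 2-fold lines, while Cdc6, Mcm10 and Uhrf1 lie farthest to the left.

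Member promoters were searched, and some are shown, because the E2F switch acts at promoters. RefSeq (GRCm38.p6) windows of 300 bases, from 250 before to 50 after the transcription start, were matched by symbol for 30 of the 37 members, in 35 windows. No window was matched for Ccnd1, Ccne2, Gins1, Gins2, Gins4, Mcm4 and Pole. The E2F words searched were TTTCCCGC, TTTCGCGC, TTTGCCGC and TTTGGCGC on both strands. Matches of TTTCGCGC and TTTGGCGC share bases in Mcm5 and Mcm6. A word was found in 13 of 35 member windows (37.1%), in 744 of 32851 windows of all genes (2.26%) and in 1 of 21 windows of G2 and mitosis genes (4.76%). The windows of the 4 members whose word lies nearest the start site follow, 5′ to 3′ on the gene's strand, with the E2F words in capitals on either strand. Rfc3 lies at chr5:151651159-151651458 (minus strand), Mcm7 at chr5:138171834-138172133 (minus), Mcm3 at chr1:20820263-20820562 (minus) and Orc1 at chr4:108579204-108579503 (plus).
Rfc3: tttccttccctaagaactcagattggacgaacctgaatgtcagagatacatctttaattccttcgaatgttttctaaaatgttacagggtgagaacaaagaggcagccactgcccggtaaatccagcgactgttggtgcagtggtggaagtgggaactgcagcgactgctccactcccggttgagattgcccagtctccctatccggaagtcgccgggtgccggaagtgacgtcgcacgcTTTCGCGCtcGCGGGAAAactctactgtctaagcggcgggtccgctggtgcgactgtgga
Mcm7: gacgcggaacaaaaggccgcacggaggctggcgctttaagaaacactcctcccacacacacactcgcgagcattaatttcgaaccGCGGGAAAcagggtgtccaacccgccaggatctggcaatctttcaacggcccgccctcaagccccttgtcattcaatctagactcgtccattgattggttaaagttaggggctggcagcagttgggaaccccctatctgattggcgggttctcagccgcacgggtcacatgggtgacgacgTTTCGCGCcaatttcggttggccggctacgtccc
Mcm3: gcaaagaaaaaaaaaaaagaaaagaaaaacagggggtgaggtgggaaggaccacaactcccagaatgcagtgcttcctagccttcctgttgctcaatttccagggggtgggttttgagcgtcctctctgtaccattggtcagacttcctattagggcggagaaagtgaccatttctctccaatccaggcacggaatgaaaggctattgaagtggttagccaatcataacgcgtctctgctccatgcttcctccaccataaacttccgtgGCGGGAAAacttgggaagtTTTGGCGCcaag
Orc1: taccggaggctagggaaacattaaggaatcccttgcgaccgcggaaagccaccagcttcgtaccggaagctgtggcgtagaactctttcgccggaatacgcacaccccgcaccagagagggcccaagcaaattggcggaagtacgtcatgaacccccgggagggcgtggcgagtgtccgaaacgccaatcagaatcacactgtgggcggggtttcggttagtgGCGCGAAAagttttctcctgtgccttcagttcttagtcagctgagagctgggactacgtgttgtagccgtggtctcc
The words of Rfc3 begin at −10 and at 1, counted from the start site as base 1, and the single word of Orc1 begins at −27. Mcm7 has words beginning at −165 and 17, and Mcm3 at 20 and 39. The 13 members with a word had a median log2 difference of 0.00 (−1.29 to 0.26), and the 17 with a window but no word had −0.07 (−0.97 to 0.49), a difference that was not tested. A match of letters is a description and not a bound site.

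Other words were spread differently. The CHR word TTTGAA, known from promoters of mitotic genes, was in 4 of 35 member windows (11.4%, in Cdc45, Fen1, Gins3 and Mcm2), beside 15 of 21 mitosis windows (71.4%) and 17.9% of all windows. CCAAT was in 60% of member windows, 85.7% of mitosis windows and 37.4% of all windows. The TCF/LEF words CTTTGAT and CTTTGAA, of which the second contains the CHR word, were in 1 member window (2.86%, Fen1), in 4 of 21 mitosis windows (19%) and in 8.65% of all windows.

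Among the genes that load the helicase, the Mcm ring genes lay on both sides of 0 while Cdc6 had the largest difference of any member. Library values are given below in the order cHet8, cHet11, cHet12, cHet14 and then cKO7, cKO9, cKO14, cKO15. Mcm2 was at 46.2, 29.0, 33.4 and 42.7 CPM in cHet and at 37.6, 33.0, 34.1 and 45.2 CPM in cKO. The 4 cKO values all lay inside the range of the cHet values, and the log2 difference was −0.01 (95% interval −0.43 to 0.40). Over Mcm2 to Mcm7 the median log2 difference was 0.08, with 3 genes above 0 and 3 below, a range of −0.38 to 0.41 and 5 of 6 intervals inside 2-fold.

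Mcm4 and Mcm5, which sit in the same ring in equal copy number, were the extremes of the 6. Mcm4 was at 70.6, 46.1, 56.7 and 54.3 CPM in cHet and at 76.5, 51.2, 77.4 and 97.6 CPM in cKO. Of the 4 cKO libraries, 3 lay above every cHet library and cKO9 lay among the lowest of all (log2 0.41, SE 0.21, adjusted p = 0.360). Mcm5 was at 30.9, 18.9, 27.6 and 32.1 CPM in cHet and at 18.4, 20.5, 19.0 and 26.3 CPM in cKO. Here 3 cHet libraries lay above every cKO library and cHet11 lay among the cKO values (log2 −0.38, SE 0.21, adjusted p = 0.394). Whether the differences of Mcm4 and Mcm5 differ from each other was not tested. Mcm6 had means of 73.0 and 87.3 CPM, Mcm3 of 28.1 and 31.8 CPM and Mcm7 of 61.0 and 53.3 CPM in cHet and cKO. The log2 differences of these 3 genes were 0.26, 0.18 and −0.19, and the groups overlapped for each.

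Cdc6, the ATPase that loads the ring together with Cdt1, was at 3.62, 2.07, 8.07 and 8.68 CPM in cHet and at 1.34, 0.739, 3.30 and 3.76 CPM in cKO. The 2 highest values were cHet12 and cHet14, while cHet8 and cHet11 lay among the cKO libraries. The log2 difference was −1.29 (SE 0.64, adjusted p = 0.350), with an interval from −2.77 to 0.18 that spans both no change and a fall of more than 4-fold. Cdt1 itself had means of 8.13 ± 0.662 and 8.84 ± 3.07 CPM, with cKO14 at 12.5 the highest. The origin recognition subunit Orc6 was among the most alike, at 38.9 ± 3.61 and 38.9 ± 4.82 CPM, with an interval of −0.30 to 0.30. Orc1, the large ATPase subunit, was scarce, at 1.82 ± 0.348 and 1.26 ± 0.776 CPM, and its interval of −1.69 to 0.63 was wide. Of the 10 loading genes, 4 differences lay above 0 and 6 below, with a median of −0.01.

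**Figure D2:**
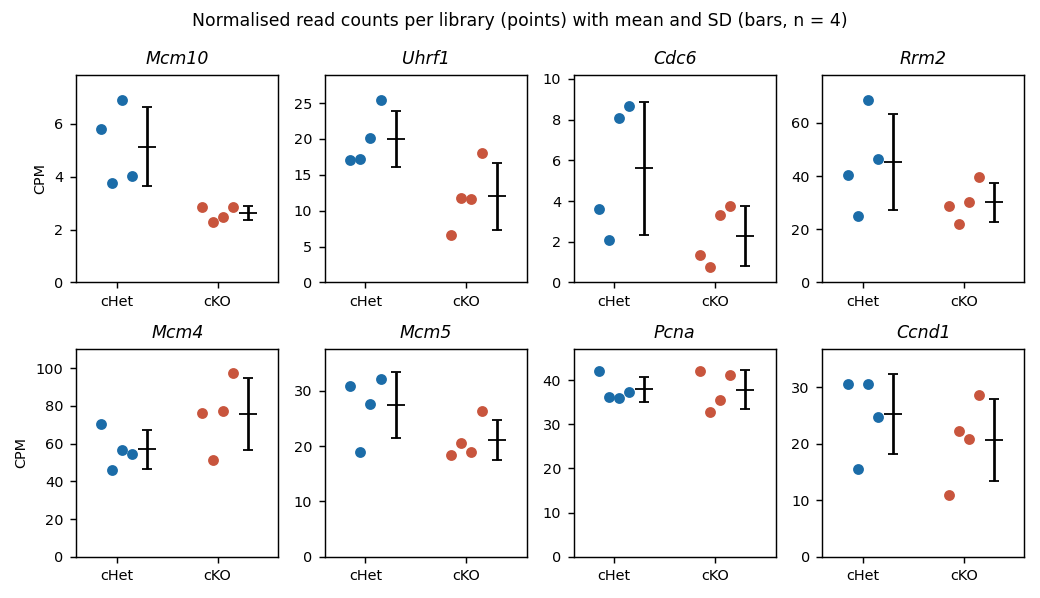
Normalised counts (CPM, y axis from 0) of 8 members in each library, cHet left and cKO right, points in the order cHet8, cHet11, cHet12, cHet14 and cKO7, cKO9, cKO14, cKO15, with bars for the mean and SD of 4 libraries. Mcm10 is the member whose groups do not overlap, and Pcna is at 37.9 CPM in both groups.

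Helicase activation held the member with the smallest p-value. Mcm10 (ENSMUSG00000026669.15), which binds the assembled helicase and helps it to start, was at 5.80, 3.77, 6.92 and 4.04 CPM in cHet and at 2.85, 2.31, 2.48 and 2.87 CPM in cKO. Every cHet library lay above every cKO library, although the nearest, cHet11 and cKO15, were less than 1 CPM apart. The means were 5.13 ± 1.49 and 2.63 ± 0.281 CPM (log2 −0.97, SE 0.30). The difference did not pass edgeR's quasi-likelihood test over all genes (adjusted p = 0.163), whereas it passed DESeq2 (adjusted p = 0.0114). Leaving out each library in turn moved it between −1.09 and −0.79, and over all 21 other fits the adjusted p of Mcm10 lay between 0.0114 and 0.612. Without both cHet8 and cHet12, its highest libraries, it was −0.57 (adjusted p = 0.502), and with the neutrophil score as a term −0.67 (adjusted p = 0.484). Leaving out the highest cHet libraries of a gene brings such a difference nearer to 0 by construction, and the smaller group raises the p-value.

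The groups overlapped for the partners of Mcm10 in the active helicase. Mcm10 was the 1 of 37 members lower without overlap, beside 3.68% of all tested genes. Cdc45 was at 12.9 ± 2.10 and 11.3 ± 1.30 CPM. Gins4 was at 30.8 ± 3.08 and 30.3 ± 2.84 CPM, with an interval of −0.33 to 0.27, and its range of 26.1 to 34.2 CPM over all 8 libraries was narrow. The other 3 GINS subunits were scarcer and looser, with log2 differences of −0.29 for Gins1, 0.23 for Gins2 and 0.22 for Gins3. The lowest values of Gins2 and Gins3 were both in cHet11, at 2.30 and 3.56 CPM.

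Among the polymerases and the sliding clamp, Pcna and Pold1 had the narrowest intervals around 0 and Pola1 and Pole wide ones. Pcna, the clamp that holds polymerases on DNA, was at 42.0, 36.2, 36.0 and 37.4 CPM in cHet and at 42.2, 32.9, 35.4 and 41.1 CPM in cKO. The groups overlapped almost fully, with means of 37.9 ± 2.77 and 37.9 ± 4.46 CPM and an interval of −0.29 to 0.28. Pold1, the catalytic subunit of the lagging-strand polymerase, was at 40.4 ± 3.92 and 40.5 ± 2.26 CPM (interval −0.25 to 0.26). Prim1, the primase that starts each fragment, was at 25.3 ± 1.76 and 24.5 ± 4.03 CPM. Pola1, which extends the primers, had the same centre but a wide spread in cKO, from 10.1 CPM in cKO7 to 28.0 CPM in cKO15. Pole, the leading-strand polymerase, also varied within both groups, from 5.30 to 14.9 CPM in cHet and from 5.35 to 16.5 CPM in cKO.

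The clamp loader subunits had log2 differences of 0.14 for Rfc3, −0.25 for Rfc4 and −0.10 for Rfc5, all with intervals inside 2-fold. Lig1, the ligase that seals the fragments, was at 25.7 ± 5.47 and 28.2 ± 6.10 CPM. Fen1, the flap nuclease, was listed near the floor, at 0.193 ± 0.0809 and 0.273 ± 0.111 CPM, with as few as 5 counts in cHet14. Of its annotated exon bases (GENCODE vM21), 84.2% are shared with other genes, the main one antisense to it. The kit does not mark strand, so reads of such pairs cannot be told apart, and the counting tool is not named in the sources. Gins2 (67.3% shared) and Chaf1a (52.5%) are uncertain for the same reason, and 14 of the 37 members share at least 1 exon base with another gene.

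In nucleotide supply the 2 subunits of ribonucleotide reductase differed in their spread, and neither was called. Rrm1 was at 79.3 ± 2.42 and 82.6 ± 7.999 CPM (log2 0.06, interval −0.17 to 0.29). Rrm2, whose protein is made in S phase, was at 40.4, 25.2, 68.8 and 46.5 CPM in cHet and at 28.8, 21.9, 30.2 and 39.6 CPM in cKO. The groups overlapped, with cHet12 far above the rest and cHet11 below 3 of the cKO libraries (log2 −0.58, SE 0.30, adjusted p = 0.372). Without cHet12 the difference was −0.31. Tyms, thymidylate synthase, behaved alike, at 20.8 ± 5.34 and 17.6 ± 1.84 CPM, and its log2 difference of −0.24 was −0.04 without cHet12.

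Among genes that restore chromatin on new DNA, Uhrf1 (ENSMUSG00000001228.15), which recognises hemimethylated DNA and brings in the maintenance methyltransferase, was at 17.1, 17.1, 20.1 and 25.4 CPM in cHet and at 6.62, 11.8, 11.7 and 17.97 CPM in cKO. Of the cKO libraries only cKO15 reached the cHet range. The log2 difference was −0.73 (SE 0.30, interval −1.42 to −0.04) and did not pass edgeR's test over all genes (adjusted p = 0.269). It lay between −0.99 and −0.53 when each library was left out in turn. Slbp, which binds the stem-loop of histone mRNA, was the most abundant member at 98.1 ± 12.9 and 102 ± 16.6 CPM. The histone chaperone subunits Chaf1a and Chaf1b had log2 differences of −0.12 and −0.17, with overlapping groups.

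The G1/S regulators did not separate the groups either. Ccnd1 (ENSMUSG00000070348.6), the cyclin D1 gene, was at 30.5, 15.5, 30.5 and 24.7 CPM in cHet and at 11.0, 22.3, 20.9 and 28.6 CPM in cKO. The lowest value was in cKO7 and the next lowest in cHet11, and the groups overlapped over most of their range (log2 −0.29, SE 0.32, adjusted p = 0.712). The interval of −1.02 to 0.44 reaches just past a 2-fold fall. Without cKO7 the log2 difference was −0.09, and without both cHet8 and cHet12 it was 0.05. Those are the lowest and the highest libraries of Ccnd1, so the direction of both moves follows from the choice. E2f1, the activator that drives the S phase genes, was at 16.2 ± 3.07 and 15.4 ± 3.29 CPM. Cyclin E genes were at 5.65 ± 0.630 and 6.89 ± 2.76 CPM for Ccne1 and at 14.9 ± 4.05 and 13.3 ± 2.53 CPM for Ccne2.

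Libraries of the same group differed from each other across many members at once. cHet11 held the lowest value of its group for 19 of the 37 members and cKO9 for 26 of the 37. How often these libraries are lowest over all tested genes was not counted. Summed member CPM was 1097, 865, 1089 and 1031 in cHet and 1029, 849, 988 and 1159 in cKO, so the lowest of each group were again cHet11 and cKO9. cHet11 and cKO9 are also the libraries lowest in general mesenchyme genes within their groups, at 3869 and 14020 CPM, and a link was not tested. Without both of them, 0 members were called higher and 0 lower by edgeR, and the member median was −0.07. At the high end, cHet8 was the highest of its group for 17 members and cKO15 for 19.

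**Figure D3:**
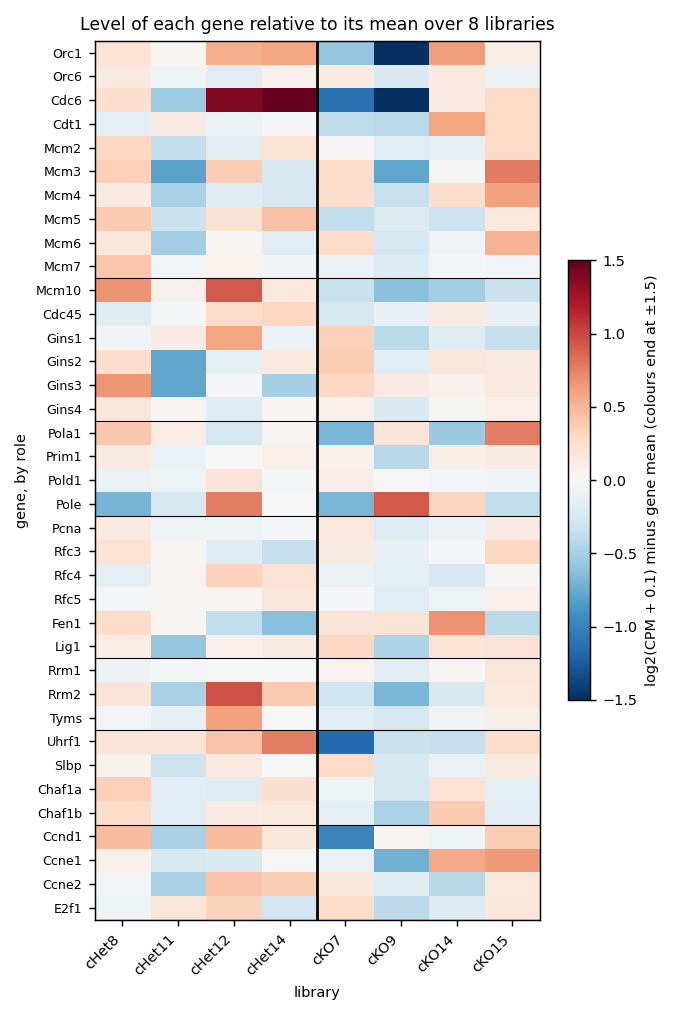
Each member's log2(CPM + 0.1) minus its mean over the 8 libraries (colour scale, ends at ±1.5), genes in rows by role and libraries in columns, with a vertical line between cHet and cKO. Columns cHet11 and cKO9 are mostly blue, Cdc6 and Mcm10 are red in cHet12, and most rows show no step at the line between the groups.

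Levels were compared between members per kilobase of annotated exon, since longer transcripts collect more reads in a full-length protocol. Over all 8 libraries the highest was Gins4 at 22.6 ± 2.05 CPM per kb, followed by Mcm4 at 18.5 ± 4.83, Mcm6 at 17.2 ± 3.92, Slbp at 16.5 ± 2.30 and Pcna at 15.8 ± 1.43 CPM per kb. The lowest were Mcm10 at 0.505 ± 0.217, Orc1 at 0.443 ± 0.182 and Fen1 at 0.0962 ± 0.0410 CPM per kb. Subunits of one complex thus stood at unlike levels on this scale: Mcm2 was at 5.41, Mcm5 at 6.07, Mcm3 at 7.98 and Mcm7 at 12.9 CPM per kb, and Gins1, Gins2 and Gins3 were at 2.82, 1.01 and 2.39 CPM per kb against the value of Gins4. The exon lengths are unions over all annotated transcripts, which can include exons these cells rarely use. The levels of Gins2 and Fen1 are also uncertain because 67.3% and 84.2% of their exon bases are shared with other genes. The low value of Gins2 beside Gins4 may therefore lie in the counting. Between 36 neighbours in the order, 4 gaps were larger than the SD of either gene, those after Rfc5, Rrm1, Pola1 and Orc1, and the other 32 were not.

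**Figure D4:**
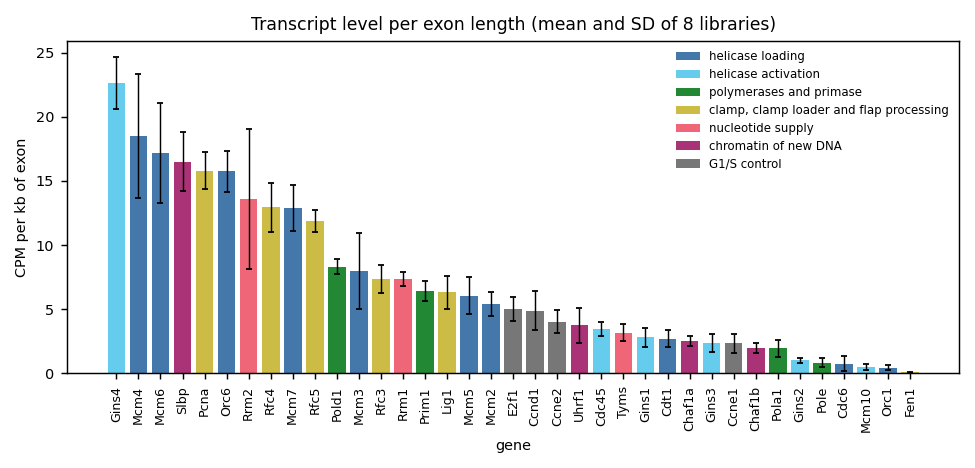
Mean level of each member in CPM per kb of exon (y axis from 0, bars) with the SD over 8 libraries (whiskers), genes ordered by level and coloured by role. Gins4, Mcm4 and Mcm6 lead, and Pole, Cdc6, Mcm10, Orc1 and Fen1 are each below 1 CPM per kb.

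Genes of the same pathway outside the 37, mitosis genes included, were tested in the same way. Of 117 such genes 116 were tested, and edgeR's quasi-likelihood test called 1 higher, E2f3, and 1 lower, Cdca8. Over all tested genes 1.08% and 0.0558% were called. DESeq2 called 4 higher and 11 lower, 8 of the 11 from the G2 and mitosis list, beside 5.78% and 2.28%. At an unadjusted p under 0.05, 8 were higher and 24 lower, beside 10.8% and 6.33%. The groups failed to overlap for 3 upward and 16 downward, beside 6.46% and 3.68%. Among 15 other origin and helicase factors the median log2 difference was −0.16 and 0 were called, with 0 higher and 1 lower at an unadjusted p under 0.05, Cdc7, the kinase that fires origins (41.1 ± 3.85 and 28.4 ± 6.53 CPM, adjusted p = 0.197). DESeq2 called 0 of the 15 and voom 1. Among 25 other fork genes the median was −0.05 and 0 were called, with 1 higher and 2 lower at an unadjusted p under 0.05. Wdhd1, which couples polymerase alpha to the helicase, was one of these (24.9 ± 3.81 and 17.7 ± 1.69 CPM, log2 −0.49, adjusted p = 0.185), and it is the 1 gene of this list that DESeq2 called.

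In 13 other nucleotide genes the median was −0.14 and 0 were called, with 0 higher and 2 lower at an unadjusted p under 0.05, Dck and Samhd1. Samhd1 was at 130 CPM in cHet12, and its next highest library, cHet8, was at 44.5 CPM. The log2 difference of Samhd1 was −1.47, but −0.55 without cHet12 and −0.03 with the neutrophil score as a term. Dck, the kinase that salvages deoxycytidine, was at 101, 112, 127 and 122 CPM in cHet and at 66.5, 89.3, 69.7 and 60.3 CPM in cKO. The groups did not overlap (log2 −0.69, SE 0.14), and the adjusted p was 0.0633 in edgeR's test, 0.000913 in DESeq2 and 0.0140 in voom, and at most 0.722 in the 21 other fits of Dck. Among 10 further chromatin genes the median was 0.01 and 0 were called, with 2 higher and 1 lower at an unadjusted p under 0.05. Tonsl, a reader of new histones, was at 6.39 ± 0.859 and 9.30 ± 1.55 CPM without overlap (log2 0.54, adjusted p = 0.277), and Rbbp7, a histone-binding protein, at 218 ± 51.0 and 343 ± 98.7 CPM (log2 0.65, adjusted p = 0.241). Asf1b, a histone H3-H4 chaperone, was at 15.1 ± 7.48 and 6.71 ± 2.10 CPM (log2 −1.17, adjusted p = 0.181). DESeq2 called Asf1b alone of the 10, and without cHet12 its log2 difference was −0.77.

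E2f3, a member of the activating E2F group, rose in cKO. Its levels were 5.57, 4.87, 4.61 and 4.45 CPM in cHet and 10.7, 15.1, 9.49 and 14.9 CPM in cKO. No library of either group lay in the other's range, and the means were 4.88 ± 0.495 and 12.5 ± 2.87 CPM (log2 1.36, SE 0.24, adjusted p = 0.0449). The call of E2f3 was kept in 6 of 21 alternatives. Leaving out any one library but cKO9 ended it, with an adjusted p of at most 0.157. Under scaling to mesenchyme genes the log2 difference of E2f3 was 0.04, beside a median of −1.35 over all tested genes. Of the 23 other G1/S regulators it was the only one called by edgeR, and the list's median was 0.18. At an unadjusted p under 0.05, 4 were higher (E2f3, Rbl2, Ccnd2 and Cdk4) and 3 lower (Mycn, Ccna2 and E2f8). Over all tested genes these shares were 10.8% and 6.33%. Mycn, a MYC family factor, was at 17.9 ± 7.15 and 9.13 ± 2.34 CPM (log2 −0.97, adjusted p = 0.195). Ccna2, the S phase cyclin A2, was at 29.7 ± 12.3 and 16.1 ± 4.82 CPM without overlap (log2 −0.89, adjusted p = 0.247). E2f8, a repressing E2F, had a log2 difference of −1.40 (adjusted p = 0.290) that was −0.46 without cHet12. Cdk4, Ccna2 and E2f8 are named outside the naming rule, after their values were seen. Ccnd2, cyclin D2, had a mean of 109 ± 55.0 CPM in cHet and 272 ± 93.0 CPM in cKO (log2 1.32, adjusted p = 0.179), and Rbl2, a retinoblastoma family protein, 48.4 ± 5.28 and 78.1 ± 18.9 CPM (log2 0.69, adjusted p = 0.115). DESeq2 and voom each called both. Of 7 CDK inhibitor genes 6 were tested and 0 were called by edgeR, with 1 higher and 1 lower at an unadjusted p under 0.05. Cdkn1c, the p57 gene, was at 64.6 ± 27.0 and 131 ± 41.3 CPM (log2 1.02, adjusted p = 0.174) and was called by DESeq2 and by voom. General mesenchyme genes, given above, summed higher in every cKO library than in any cHet library. With the mesenchyme score as a term edgeR called 0 of the 116 genes, beside 7 higher and 3 lower over all genes. E2f3 had a log2 difference of 1.33 (adjusted p = 0.517), near its 1.36 without the term. Because mesenchyme level and genotype go together, that fit has little power for any gene, and a lost call in it gives no cause.

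The listed genes of G2 and mitosis lay on one side of 0. All 24 tested genes had log2 differences below 0, cKO minus cHet, from −1.40 to −0.04. Their median was −0.86, beside −0.04 over the 37 members and −0.03 over all tested genes. The edgeR test called 1 of the 24 lower, Cdca8, beside 0.0558% of all tested genes. At an unadjusted p under 0.05, 14 were lower, beside 6.33%. For 9 the groups did not overlap, with cKO lower, beside 3.68%. DESeq2 called 8 lower and voom 1, beside 2.28% and 1.26%. Cdca8, a subunit of the chromosomal passenger complex, fell from 25.2, 22.4, 31.9 and 24.7 CPM in cHet to 12.3, 15.02, 13.1 and 11.7 CPM in cKO (log2 −1.001, SE 0.17, adjusted p = 0.0406). The groups did not overlap. The call of Cdca8 was kept in 8 of 21 alternatives. Leaving out any one library but cKO9 ended it, with an adjusted p of at most 0.148.

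The proliferation markers Mki67 and Top2a did not pass the test. Mki67 was at 11.2, 18.7, 34.8 and 20.2 CPM in cHet and at 6.09, 19.4, 6.13 and 12.2 CPM in cKO, where cKO9 and cKO15 reached the cHet range (log2 −0.95, adjusted p = 0.347). Without cHet12 the log2 difference of Mki67 was −0.61. Top2a, the topoisomerase of chromosome condensation, was at 54.1 ± 11.0 and 33.2 ± 11.2 CPM (log2 −0.70, adjusted p = 0.253). Nusap1, a spindle protein, was at 32.1 ± 12.2 and 12.1 ± 5.01 CPM without overlap (log2 −1.40, adjusted p = 0.115). The ratio of summed mitosis CPM to summed member CPM was 0.355, 0.461, 0.664 and 0.510 in cHet and 0.221, 0.376, 0.304 and 0.298 in cKO. The groups overlapped only through cHet8 and cKO9. The difference between the member list and the mitosis list was not tested.

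One library weighed on the mitosis values. cHet12 held the highest level of 20 of the 24 mitosis genes, and without it their median was −0.62. Without cHet12 not all of them lay below 0: Foxm1 was at 0.33 and Kif23 at 0.04, and the rest stayed below. Both genes are named outside the naming rule. cHet12 also had the highest summed neutrophil genes (18510 CPM, 7 of 9 tested, all 7 below 0 in cKO minus cHet) and macrophage genes (2850 CPM, 8 of 8 below 0), against at most 1366 and 860.5 CPM in any other library. With the neutrophil score as a term the mitosis median was −0.76 and the member median −0.06. Erythroid genes summed to 53.1 to 103 CPM in cHet and 56.3 to 105 CPM in cKO.

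**Figure D5:**
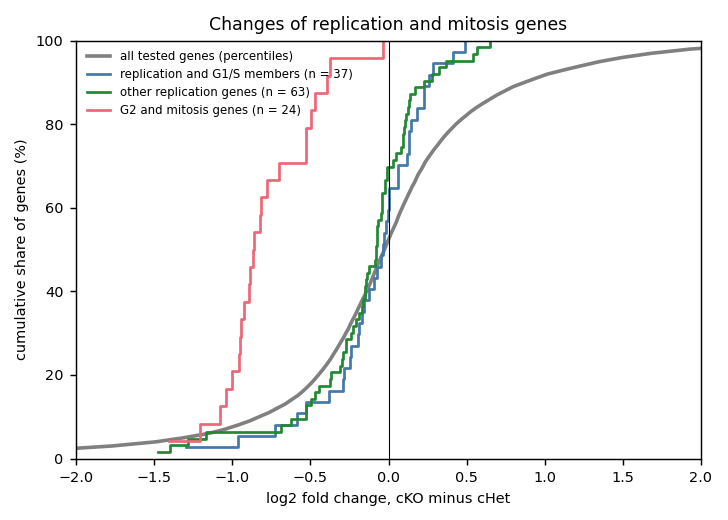
Cumulative share of genes (y axis, %) by log2 difference, cKO minus cHet (x axis, shown from −2 to 2), for the 37 members, 63 other replication genes, 24 G2 and mitosis genes and all tested genes. The member curve crosses 50% at −0.04 beside all genes at −0.03, while the mitosis curve crosses it at −0.86.

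Scaling to mesenchyme genes moved the medians of the members and of all tested genes down alike, while a larger share of the members separated. Libraries scaled to the summed general mesenchyme counts gave a median log2 difference of −1.39 over the members and −1.35 over all tested genes, and 32 of the 37 members were lower in cKO without overlap, beside 31.9% of all tested genes. None was called by edgeR under this scaling. At an unadjusted p under 0.05 there were 32 members, beside 11360 of the 21508 tested genes. The mesenchyme sums do not overlap between the groups, so a gene with a steady share of the library is placed lower in cKO by that scaling. With the mesenchyme score as a term beside genotype the member median was −0.32, beside 0.02 over all tested genes, and 12 members changed sign. Again no member was called, beside 7 genes higher and 3 lower over all genes. With the olfactory neuron score as a term the member median was −0.19, beside 0.04 over all tested genes, and none was called.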

How the data were processed

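The authors deposited whole-number counts per Ensembl gene for 8 libraries, without normalization. Per the submitters' processing notes, Trim Galore, STAR and the builds GRCm39 and mm39 were used. No counting tool, annotation or version is named in the sources used here. Per the labels' protocols, the cDNA came from a SMART-Seq v4 kit, which amplifies full-length transcripts without marking strand or single molecules. Identifiers were matched without version suffix to symbols (52073 of 56748), and the identifier with the largest count stood for a repeated symbol. Column names give the group and a number that matches no sample title, so columns were assigned to groups only.

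Counts were scaled with TMM factors, filtered by edgeR's default by group (21508 genes kept) and tested with the quasi-likelihood F test in edgeR 4.0.16 (R 4.3.3), with genotype as the sole term, two-sided, and Benjamini-Hochberg adjustment over all tested genes. A gene was called at an adjusted p under 0.05. The standard error is the size of the log2 difference divided by the square root of F, an approximation, and intervals are 95%. CPM values are means ± SD over 4 libraries. The common biological coefficient of variation was 0.553, and totals of 44444033 to 50051392 counts set the depth. Alternatives were DESeq2 1.42.0, voom with quality weights (limma 3.58.1), other scalings and filters, marker scores (mean log2 CPM, prior count 2) as terms, and libraries left out. The code was tested on simulated counts.

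The members and all lists were chosen with earlier results of these data known. All members were eligible to be named, with Ctnnb1, Cxcl12, Mki67, Top2a, up to 4 genes of smallest p from each further list, and the marker genes of highest mean. Exon lengths and overlaps are from GENCODE vM21 (GRCm38) and promoter windows from RefSeq (GRCm38.p6), which are not the files' build, so only the windows' own coordinates are given.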

Additional observations from a re-analysis of the deposited data

Results flagged for a closer look

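Of 74 sets of 4 library values (37 members in each group), 4 held a library whose gap to its nearest neighbour exceeded Dixon's 95% critical value for 4 samples, as a share of the set's range. Chance alone gives such a gap in about 1 set in 20. In cKO9, Prim1 was at 18.5 CPM while the other cKO libraries lay between 25.9 and 27.0 CPM. Lig1 was set apart in both groups, at 17.5 CPM in cHet11 beside 27.8 to 28.9 CPM in the others, and at 19.1 CPM in cKO9 beside 30.4 to 32.6 CPM. Tyms in cHet12 was at 28.7 CPM, with the other cHet libraries between 17.3 and 18.7 CPM. The low values fell in cHet11 and cKO9, and they are themselves among the values that make these libraries lowest for most members.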

How the results depend on the processing

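Of 37 members, edgeR called 0 higher and 0 lower under every alternative run here, and voom 0 and 0. In the edgeR alternatives 1 to 6 members had an unadjusted p under 0.05, beside 1361 to 5049 of all tested genes. With mesenchyme scaling there were 32, beside 11360. DESeq2 called 1 lower, Mcm10. The groups failed to overlap for 5 members lower with library size alone (5.6% of all tested genes) and 32 with mesenchyme scaling (31.9%), and leaving out 1 library gave 0 to 3 higher (6.37% to 13.4% of all genes) and 1 to 3 lower (4.47% to 10.3%). The member median moved to −1.39 with mesenchyme scaling and −0.32 with the mesenchyme score as a term, and stayed within the spread between libraries in the other fits. The 116 further genes had 1 called higher and 1 lower, beside 1.08% and 0.0558% of all tested genes. These counts were 4 and 11 with DESeq2, 4 and 3 with voom, and 0 and 0 with mesenchyme scaling, no filter, or the mesenchyme, olfactory or neutrophil score as a term. Library size alone gave 0 higher, and 1 CPM in 4 libraries or a threshold of 0.10 gave 2 lower. Over all genes 232 were called higher and 12 lower. DESeq2 called 1386 and 547, voom 1281 and 271, the 0.10 threshold 704 and 62, mesenchyme scaling 2 and 1, the mesenchyme score 7 and 3, the olfactory score 1 and 0, the neutrophil score 0 and 0, and no filter gave 5 lower. Leaving out 1 library gave 0 to 816 higher and 0 to 144 lower over all genes, the most without cKO9, and 0 to 3 and 0 to 2 among the further genes. Chosen after seeing the data, leaving out cHet8 and cHet12 gave 91 and 0 over all genes, 0 and 0 among the further genes and 1 and 2 members without overlap (14.9% and 14.1% of all genes). Leaving out cHet11 and cKO9 gave 609 and 32, 0 and 2, and 3 and 3 (14.6% and 11.9%). The causes were not tested. No paired analysis was possible because the numbers in the table's column names match none of the replicate numbers of the sample titles. Precision is limited for scarce members, of which Fen1 had as few as 5 counts.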
